A study of Mus musculus with 8 samples.

Results

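The teashirt genes Tshz1, Tshz2 and Tshz3, the ZFHX genes Zfhx2, Zfhx3 and Zfhx4, and Zadh2, the gene next to Tshz1, were followed in mouse embryonic stem cell cultures with and without a working Tbx1. The 7 genes were taken by symbol from a count table of 55487 gene identifiers, of which 26750 had at least 1 count and 13280 passed a filter on low counts. All 7 passed that filter. The list names gene families and was chosen by symbol with knowledge of the fold changes and calls between the lines, so that the differences of these 7 genes between the lines are given as a description and not as tests.

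The samples were 8 libraries, 4 from the parental line E14-Tg2a, labelled WT, and 4 from the line E14-Tg2a 4D, labelled Tbx1-/-. Both lines went through the same in vitro differentiation towards precardiac mesoderm in serum-free medium and were harvested on day 6. The series text calls the 4 samples of each line biological replicates, and 4D is 1 line, so that loss of Tbx1 and other properties of that line cannot be told apart. QuantSeq, which reads the 3′ end of polyadenylated RNA, gives counts that do not grow with transcript length, and each level is in CPM, where edgeR's TMM factors bring the libraries to 1 common total.

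Teashirt proteins are zinc finger transcription factors, first known from the fly, where they specify trunk identity. They act largely as repressors together with corepressors. In the mouse Tshz1 is known from the soft palate, the middle ear and the olfactory bulb, and Tshz3 from the smooth muscle of the ureter. ZFHX proteins are very large factors that carry several homeodomains among many zinc fingers. Zfhx3, also called Atbf1, is known for growth control and for the link of its human counterpart with atrial fibrillation. Zadh2 encodes an oxidoreductase that acts on oxidised prostaglandins and is not a transcription factor.

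The windows before the annotated starts of Zfhx3, Tshz2 and Tshz3 are shown because Zfhx3 was called between the lines whereas the teashirt pair was not, and because they span a wide range of CG content. RefSeq windows (GRCm38.p6) were found for 4 of the 7 genes, Tshz2, Tshz3, Zfhx2 and Zfhx3. Each shown stretch holds the 250 bases before the start on the gene's strand, and capitals mark CG dinucleotides.
Zfhx3 (chr8:108714394-108714643, plus strand): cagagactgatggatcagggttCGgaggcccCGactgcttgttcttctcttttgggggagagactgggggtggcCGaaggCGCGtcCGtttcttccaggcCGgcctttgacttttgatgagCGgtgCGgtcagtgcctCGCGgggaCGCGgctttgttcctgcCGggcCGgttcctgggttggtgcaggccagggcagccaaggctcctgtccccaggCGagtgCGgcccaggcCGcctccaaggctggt
Tshz2 (chr2:169632259-169632508, plus strand): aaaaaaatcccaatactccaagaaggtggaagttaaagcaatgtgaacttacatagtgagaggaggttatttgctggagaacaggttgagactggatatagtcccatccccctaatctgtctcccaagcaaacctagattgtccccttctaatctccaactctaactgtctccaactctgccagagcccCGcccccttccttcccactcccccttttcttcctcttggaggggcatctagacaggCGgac
Tshz3 (chr7:36697868-36698117, plus strand): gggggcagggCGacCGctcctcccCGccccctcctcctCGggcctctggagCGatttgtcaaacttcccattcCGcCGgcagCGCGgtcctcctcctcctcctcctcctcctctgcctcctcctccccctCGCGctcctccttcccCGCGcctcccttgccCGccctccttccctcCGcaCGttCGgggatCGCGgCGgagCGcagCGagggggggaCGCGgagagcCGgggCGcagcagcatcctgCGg
The Zfhx3 window held 18 CG dinucleotides and 66.0% G or C. Tshz3 had 27 with 74.0%, Zfhx2 had 15 with 55.6%, and Tshz2 had 2 with 48.8%, where the median of 32851 windows was 6 and 52.4%. The T-box motif AGGTGTGA, searched on both strands, was in 1.12% of all windows of this length and in none of these 4, and its shorter core AGGTGT, which lies inside it, was in 11.8% of all windows and also in none of the 4.

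Depth was 3803561 to 6293907 counts per library. Tbx1, the targeted gene, had 39, 65, 38 and 22 counts in parental libraries 1 to 4 and 3, 0, 1 and 0 in mutant libraries 1 to 4. Mutant library 4 stood apart, with the smallest depth, counts in 14850 genes against 18213 to 19134 in the other 7, and 17.7% of its counts in the ribosomal RNA gene CT010467.1 against 8.90% to 13.0%. Of the undifferentiated state, 6 pluripotency markers summed to 16.7 to 29.6 CPM in all 8 libraries. Cardiomyocyte markers (8 genes) summed to 323 to 2172 CPM in parental and 62.4 to 594 CPM in mutant libraries, and Pdgfra, a receptor of early mesoderm, was at 88.0 to 121 and 64.7 to 115 CPM.

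In these cultures the mutant line had more Tshz1, Zfhx3 and Zadh2 RNA than the parental line, and the other 4 genes were not past the threshold. Of the 7 genes, 3 passed an adjusted p of 0.05 when edgeR's quasi-likelihood model was fitted over all 13280 genes, all 3 higher in the mutant. Over all tested genes 188 were called (1.42%), 99 of them higher in the mutant (0.745%) and 89 lower (0.670%), while scaling by library size alone gave 100 higher and 57 lower. Groups did not overlap for the same 3 of the 7 genes, against 7.52% of all tested genes. Since this contrast was known when the 7 genes were chosen, nothing is read from these counts. The median log2 fold change was 0.42 over the 7 genes, which is the value of Zfhx4, and 0.00 over all tested genes. For the same reason nothing is read from these medians.

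Tshz1 (ENSMUSG00000046982.11, chromosome 18, 84011627 to 84087706, minus strand) was the teashirt gene with the most RNA in both lines. Its levels were 184, 171, 197 and 182 CPM in parental libraries 1 to 4 and 425, 307, 416 and 564 CPM in mutant libraries 1 to 4. Every mutant library lay above every parental library, with mutant library 4 highest and mutant library 2 lowest of the mutant line. The means were 184 ± 10.7 and 428 ± 105 CPM (SD, n = 4), a log2 fold change of 1.22 ± 0.14 (SE), or 2.33-fold (95% interval 1.89 to 2.86). Without mutant library 4 the log2 fold change was 1.06. The parental libraries differed little among themselves, with a coefficient of variation of 5.83% where counting error alone gives 3.14%, and the mutant libraries varied by 24.6%.

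Tshz2 (ENSMUSG00000047907.11, chromosome 2, 169633013 to 170071816, plus strand) was at 67.1, 87.7, 90.3 and 100.3 CPM in parental libraries 1 to 4 and at 68.7, 77.8, 73.4 and 84.7 CPM in mutant libraries 1 to 4. The ranges overlapped widely, and the log2 fold change was -0.18 (95% interval -0.49 to 0.13). Tshz3 (ENSMUSG00000021217.7, chromosome 7, 36698118 to 36773553, plus strand) was at 11.5, 16.5, 18.4 and 18.5 CPM in the parental libraries and 11.3, 22.9, 12.4 and 15.4 CPM in the mutant libraries. It was the lowest of the 7 genes in both lines, and its log2 fold change of -0.07 had an interval of -0.70 to 0.55, wide enough to hold a change of 1.47-fold upwards. Models of unclassified transcripts inside Tshz3 on its strand (Gm37452, Gm38340 and E230020A03Rik) had at most 46 counts in any library and were not called. The sign of the Tshz3 estimate turned without mutant library 1 (0.052) and without mutant library 3 (0.016).

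**Figure D1:**
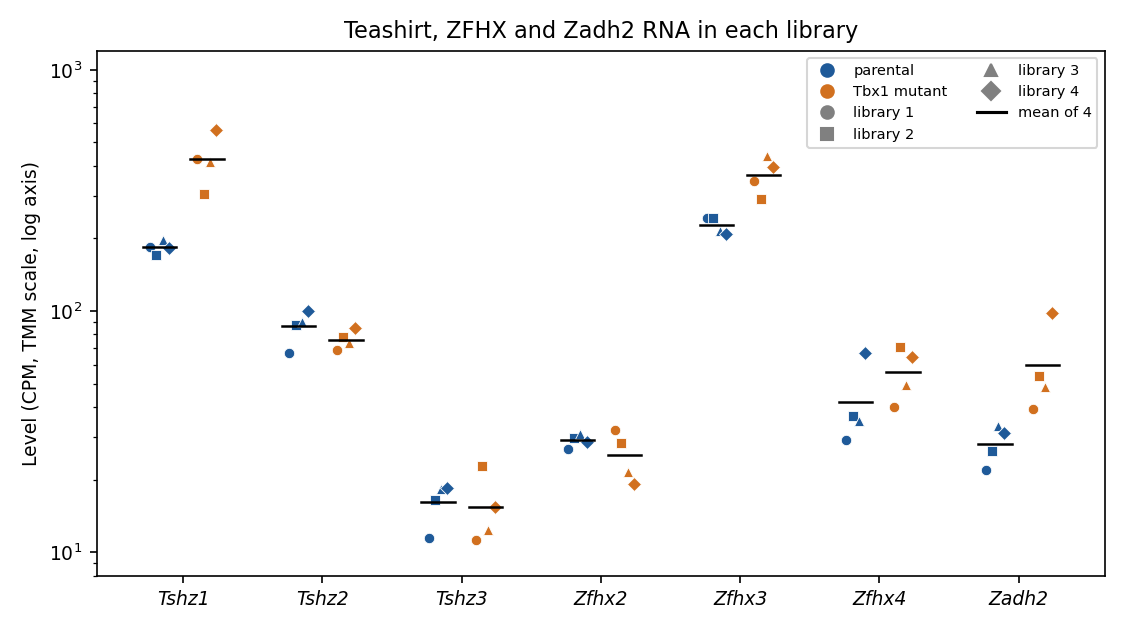
Level of each of the 7 genes in CPM (log axis) in 4 parental libraries (blue) and 4 mutant libraries (orange), with the shape giving the library number and the line the mean of 4. All 4 mutant points lie above all 4 parental points for Tshz1, Zfhx3 and Zadh2, while the lines overlap for Tshz2, Tshz3, Zfhx2 and Zfhx4.

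The makeup of teashirt RNA differed accordingly. Tshz1 made up 70.1%, 62.2%, 64.5% and 60.5% of all teashirt counts in parental libraries 1 to 4 and 84.2%, 75.3%, 82.9% and 84.9% in mutant libraries 1 to 4. The 95% exact Clopper-Pearson intervals reached up to 72.5% in the highest parental library and down to 73.3% in the lowest mutant library. They cover counting error within a library and not the spread among libraries of a line, so they do not test the lines. The share also carries the Tshz1 difference that was known when the genes were chosen, and nothing is read from it. Summed teashirt RNA was 286 ± 20.5 CPM in the parental libraries and 520 ± 106 CPM in the mutant libraries (SD, n = 4).

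Zfhx3 (ENSMUSG00000038872.10, chromosome 8, 107942644 to 108961630, plus strand) spans 1019 kb and was the most abundant of the 7 genes in the parental line. It was at 242, 243, 214 and 208 CPM in parental libraries 1 to 4 and at 346, 292, 440 and 394 CPM in mutant libraries 1 to 4. The lowest mutant library, library 2, was above all parental libraries. The means were 227 ± 18.3 and 368 ± 63.9 CPM (SD, n = 4), a log2 fold change of 0.70 ± 0.12 (SE), or 1.62-fold (95% interval 1.36 to 1.94). Without mutant library 4 it was 0.66.

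Inside the Zfhx3 gene, on the same strand, lies Gm38042, a short unclassified transcript model on chromosome 8 from 108737593 to 108742800. It was at 30.7, 28.9, 27.3 and 26.8 CPM in the parental libraries and 51.7, 47.9, 57.6 and 46.7 CPM in the mutant libraries, again without overlap. The difference on the log2 scale was 0.84 ± 0.17 (SE, edgeR adjusted p = 0.0135). The model begins 22.9 kb after the start that the printed Zfhx3 window precedes, and that start is itself 772 kb inside the gene as annotated in GENCODE M21. Reads of Gm38042 and of unspliced Zfhx3 RNA cannot be told apart in a table of gene counts, so this is no second measurement of a separate gene. A further model on that strand, Gm38318, had at most 25 counts and a log2 fold change of 0.37 ± 0.77. Models on the opposite strand within Zfhx3 had at most 2 counts in any library.

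Zfhx4 (ENSMUSG00000025255.18, chromosome 3, 5218526 to 5415857, plus strand), known from muscle and neural differentiation, was at 29.1, 36.6, 35.1 and 66.8 CPM in the parental libraries and 40.0, 70.8, 49.4 and 64.3 CPM in the mutant libraries. Parental library 4 was above 3 of the 4 mutant libraries, and the log2 fold change was 0.42 (95% interval -0.08 to 0.93). Without parental library 4 it was 0.73, still not past the threshold. Zfhx2 (ENSMUSG00000040721.9, chromosome 14, 55060262 to 55092324, minus strand), whose human counterpart is known from pain perception, was at 26.9, 29.8, 31.0 and 28.7 CPM in the parental libraries and 32.1, 28.3, 21.4 and 19.2 CPM in the mutant libraries. Its mutant libraries lay on both sides of the narrow parental range, with a log2 fold change of -0.20 (95% interval -0.65 to 0.26). The antisense models Zfhx2os and Gm20687 that overlap Zfhx2 had 0 counts in all 8 libraries.

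**Figure D2:**
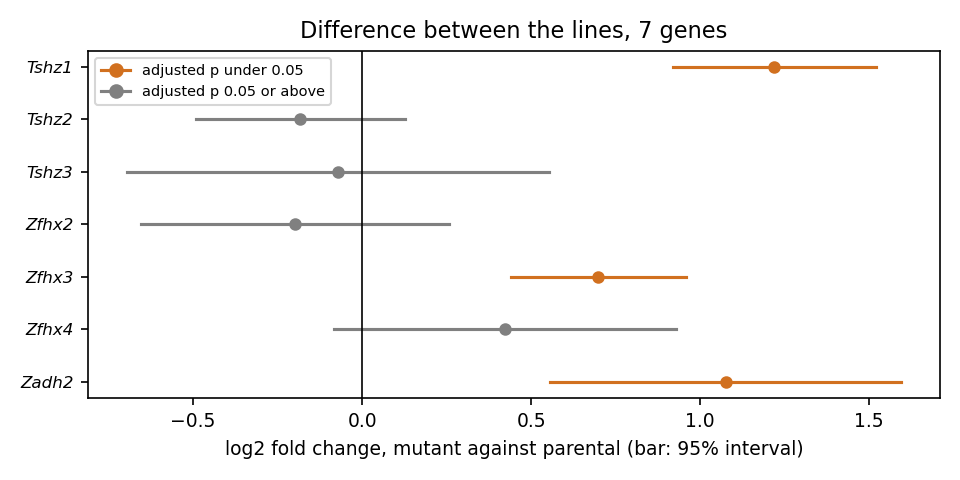
Log2 fold change of each gene, mutant against parental, with its 95% interval from the edgeR fit, orange where the adjusted p was under 0.05. The intervals of Tshz1, Zfhx3 and Zadh2 lie above 0, and those of Tshz2, Tshz3, Zfhx2 and Zfhx4 include 0.

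Zfhx3 made up 81.2%, 78.5%, 76.4% and 68.6% of ZFHX counts in parental libraries 1 to 4 and 82.7%, 74.6%, 86.1% and 82.5% in mutant libraries 1 to 4. Unlike the Tshz1 share, these values overlapped between the lines. Summed ZFHX RNA was 298 ± 12.7 CPM in the parental libraries and 449 ± 54.9 CPM in the mutant libraries (SD, n = 4).

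**Figure D3:**
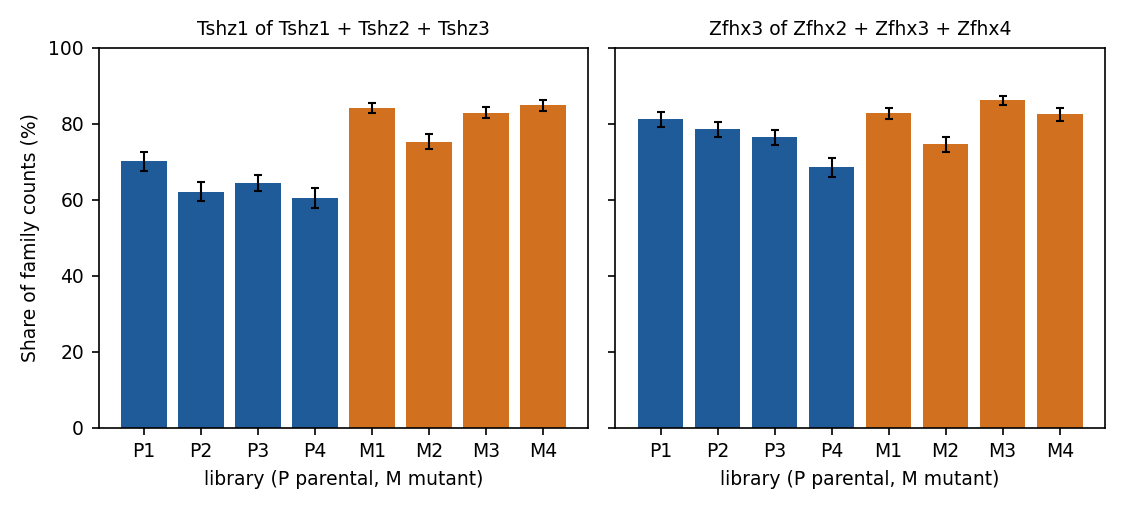
Share of Tshz1 in teashirt counts (left) and of Zfhx3 in ZFHX counts (right) in each parental (P) and mutant (M) library, with 95% exact binomial intervals (counting error only). The Tshz1 share is 60.5% to 70.1% in parental and 75.3% to 84.9% in mutant libraries, and the Zfhx3 share overlaps between the lines.

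Zadh2 (ENSMUSG00000049090.3, chromosome 18, 84088063 to 84097528, plus strand) starts 356 bases from the start of Tshz1 and runs in the opposite direction. It was at 22.0, 26.4, 33.4 and 31.2 CPM in parental libraries 1 to 4 and at 39.3, 53.6, 48.3 and 98.1 CPM in mutant libraries 1 to 4. The lines did not overlap, and mutant library 4 was far above the other mutant libraries. The means were 28.2 ± 5.07 and 59.8 ± 26.2 CPM (SD, n = 4), a log2 fold change of 1.07 ± 0.25 (SE), or 2.11-fold (95% interval 1.47 to 3.02). Without mutant library 4 the log2 fold change was 0.73 and the gene was no longer called. The call was likewise lost without parental library 1 (0.97), 2 (1.04), 3 (1.16) or 4 (1.12), without mutant library 3 (1.16), and with limma-voom (0.94).

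Tshz1 and Zadh2 did not keep a fixed ratio. Tshz1 had 8.38, 6.50, 5.92 and 5.83 counts per Zadh2 count in parental libraries 1 to 4 and 10.8, 5.73, 8.62 and 5.75 in mutant libraries 1 to 4. The ratio averaged 6.66 ± 1.19 in parental and 7.73 ± 2.47 in mutant libraries (SD, n = 4), so that it varied more among libraries of 1 line than between the lines.

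**Figure D4:**
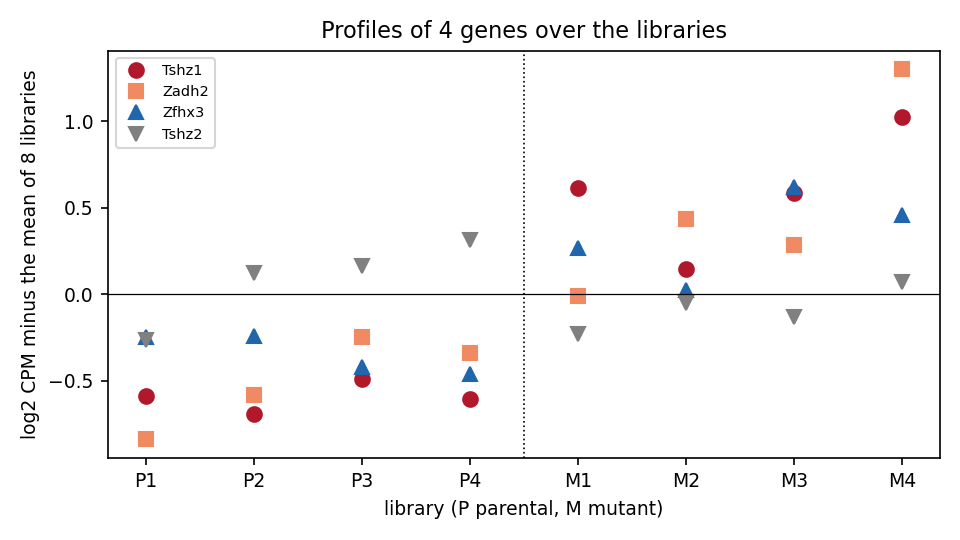
Log2 CPM of Tshz1, Zadh2, Zfhx3 and Tshz2 in each parental (P) and mutant (M) library, relative to the gene's mean over the 8 libraries. Tshz1 and Zadh2 are both highest in mutant library 4, Zfhx3 is highest in mutant library 3, and Tshz2 stays within a narrow band.

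The flanking genes on chromosome 18 were not past the threshold. Zfp407, a zinc finger gene 30.5 kb beyond Zadh2, averaged 23.8 ± 4.59 CPM in the parental and 31.9 ± 3.18 CPM in the mutant line (SD, n = 4), a log2 fold change of 0.43 ± 0.21 (SE, edgeR adjusted p = 0.445). Zfp516, another zinc finger gene 1006 kb beyond Tshz1, had a log2 fold change of -0.28 ± 0.11 (edgeR adjusted p = 0.30). On chromosome 2 Zfp217 lies 36.8 kb beyond Tshz2 and had a log2 fold change of -0.34 ± 0.17 (edgeR adjusted p = 0.443). The lines did not overlap for Zfp217, as for 7.52% of all tested genes. Psmd7, a proteasome subunit gene 354 kb before Zfhx3, had -0.04 ± 0.11 (edgeR adjusted p = 0.929). Tshz3, Zfhx3 and Zfhx4 lie far from other protein-coding genes, with 699, 354 and 144 kb to the nearest, where the median of 21951 protein-coding genes is 4.40 kb.

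The order of the levels changed with the line. In the parental line Zfhx3 was first and Tshz1 second, without overlap of their libraries. In the mutant line Tshz1 was first and Zfhx3 second, and their ranges, 307 to 564 and 292 to 440 CPM, overlapped. Tshz2 came next in both lines, below all Zfhx3 and Tshz1 libraries, and Tshz3 was last. In the mutant line the range of Tshz3, 11.3 to 22.9 CPM, overlapped that of Zfhx2, 19.2 to 32.1 CPM. Zfhx4, Zfhx2 and Zadh2 filled the places between, and in the parental line the ranges of Zfhx4 and Zfhx2 overlapped, as did those of Zfhx2 and Zadh2. In the mutant line Zadh2 followed Tshz2, its range overlapping those of Tshz2 above and Zfhx4 below.

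Genes with the most similar profile were sought among 9025 other tested genes with a mean of at least 10 CPM, by the root mean square difference in log2 CPM over the 8 libraries after centring each gene on its mean. For Tshz1 these were Chst1, a carbohydrate sulfotransferase (0.15), Zbed3, a zinc finger gene (0.16), and Nfic, a nuclear factor I gene (0.18), each called higher in the mutant. The profiles hold the difference between the lines, so that near genes largely share it, and nothing is read from their calls. A flat profile would differ from Tshz1 by 0.64. Zfhx3 was at 0.32 from Tshz1, in place 59, and Zadh2 at 0.33, in place 67. Seen from Zfhx3, Tshz1 was in place 781 and Zadh2 in place 3802. Zadh2 was at 0.44 from Zfhx3, farther than a flat profile at 0.38. For Zfhx3 the nearest were Hand2os1, a noncoding RNA beside the heart factor gene Hand2 (0.08), Ccdc115 (0.11) and Nabp1 (0.12). For Zadh2 they were Mtbp (0.21), Etfdh, a mitochondrial flavoprotein dehydrogenase gene (0.23), and C130075A20Rik (0.25). Hand2os1 was called higher in the mutant, while Ccdc115, Nabp1, Mtbp, Etfdh and C130075A20Rik were not called. The nearest to Tshz2 were Resf1, Rnf10 and Igdcc3, and to Tshz3 Fzd3, Chic1 and Atxn7l1. For Zfhx2 they were Cdk6, Rspo3 and Prkrip1, and for Zfhx4 Gpc6, Hdac8 and Nid2. None of the genes nearest to Tshz2, Tshz3, Zfhx2 and Zfhx4 was called.

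Among genes known to work with teashirt factors, Bmp4 fell and the others did not pass the threshold. Of 20 listed genes 19 were tested and 1 was called, against 1.42% of all genes, and the median log2 fold change of the 19 was -0.04. Bmp4, a signalling ligand that acts upstream of Tshz3 in the ureter, fell from 342 ± 58.5 to 127 ± 50.5 CPM (SD, n = 4), which is -1.42 ± 0.22 on the log2 scale (SE, edgeR adjusted p = 0.00165). All 4 mutant libraries were below all 4 parental libraries. The most abundant of the others were Set, Meis2 and Hdac2, and Set and Meis2 had log2 fold changes of -0.03 ± 0.10 and 0.32 ± 0.16. The corepressor genes Ctbp1, Ctbp2, Hdac1 and Hdac2 had log2 fold changes between -0.10 and 0.12. Myocd, the smooth muscle and heart coactivator with which Tshz3 interacts, was chosen after its values were seen, as was Six2. Myocd was at 73.5, 46.8, 28.9 and 16.4 CPM in the parental libraries and 12.9, 15.3, 16.9 and 1.92 CPM in the mutant libraries, which is -1.79 ± 0.45 on the log2 scale (edgeR adjusted p = 0.057). Six2, a progenitor homeobox gene, was at 13.4 ± 3.28 and 2.84 ± 2.64 CPM (SD, n = 4), without overlap of the lines. Its log2 fold change was -2.20 ± 0.61 (SE, edgeR adjusted p = 0.0867). Myocd and Six2 were both called without mutant library 4, without the filter on low counts and with the replicate block. Six2 was also called with DESeq2 and without mutant library 3, and Myocd without parental library 4. In the remaining alternatives neither was called.

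Of 8 genes tied to ZFHX factors, 5 were tested, Cdkn1a, Chd4, Myb, Pias3 and Runx3. Chd4, the chromatin remodeller that binds ZFHX4, had a log2 fold change of -0.18 ± 0.09. Cdkn1a, a cell cycle inhibitor gene that Zfhx3 is known to activate, was at 46.1 ± 10.4 and 77.1 ± 31.6 CPM, with a log2 fold change of 0.74 ± 0.24 (edgeR adjusted p = 0.15). Among the alternatives it was called only without the filter on low counts, where 439 genes were called over all against 188. Pias3, which encodes a binding partner of Zfhx3, had a log2 fold change of 0.19 ± 0.20. None of the 5 was called, against 1.42% of all tested genes. The median log2 fold change of the 5 was 0.60, against 0.00 over all tested genes. That median is the value of Myb, 0.60 ± 0.52 (SE), which had 12 to 72 counts per library.

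Other zinc finger factors of development moved in both directions. Of 15 listed genes 14 were tested, with 2 called higher and 2 lower, against 0.745% and 0.670% of all tested genes, and a median log2 fold change of 0.13. Bcl11a, a factor of blood and neural cells, rose from 7.15 ± 1.74 to 29.2 ± 17.7 CPM (SD, n = 4), on the log2 scale by 2.02 ± 0.38 (edgeR adjusted p = 0.00713). Zfpm2, the GATA cofactor also called Fog2, rose from 13.7 ± 2.04 to 35.7 ± 14.5 CPM, on the log2 scale by 1.38 ± 0.28 (edgeR adjusted p = 0.0126). The spalt gene Sall4 fell from 209 ± 35.3 to 133 ± 18.0 CPM, with -0.65 ± 0.14 (edgeR adjusted p = 0.019), and lies 865 kb before Tshz2. Sall1 fell from 77.4 ± 13.5 to 41.3 ± 14.4 CPM, with -0.91 ± 0.21 (edgeR adjusted p = 0.0358) and overlapping libraries. Zeb1, Zfpm1 and Zeb2, the most abundant of the rest, had 0.22 ± 0.13, 0.13 ± 0.16 and 0.62 ± 0.19. Without parental library 2 or 3, or without mutant library 1, Bcl11a was the 1 gene of the list still called, and without mutant library 3 Bcl11a and Zfpm2 were. The Sall1 call was also lost without parental library 4 (-0.87), without mutant library 4 (-0.89) and with scaling by library size alone (-0.88).

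**Figure D5:**
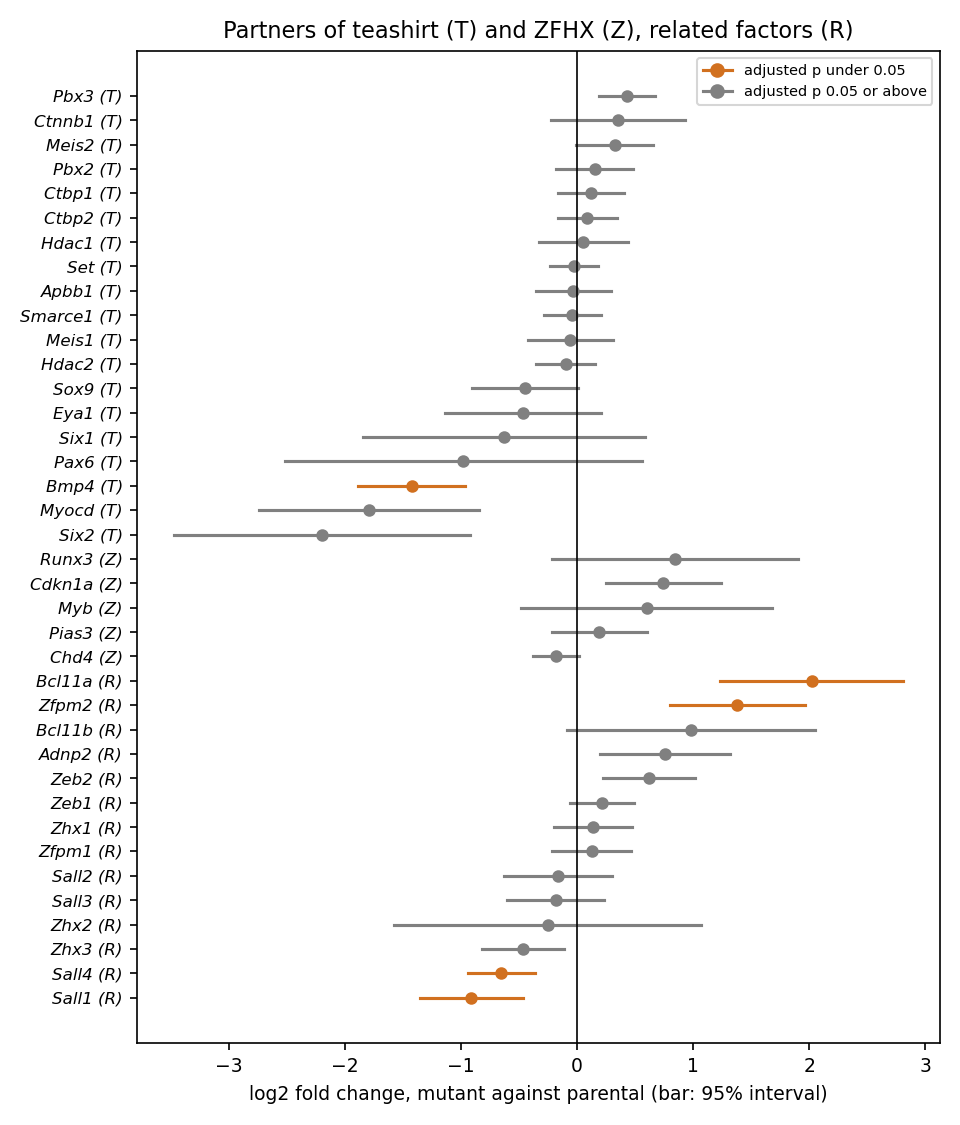
Log2 fold change with 95% interval, mutant against parental, for the tested partners of teashirt factors (T), partners of ZFHX factors (Z) and related zinc finger factors (R), orange where the adjusted p was under 0.05. Bmp4, Sall4 and Sall1 lie below 0, Bcl11a and Zfpm2 lie above it, and most corepressor and homeobox partners of teashirt sit near 0.

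Markers of several cell types also differed between the cultures. The calls in these marker lists stand beside 0.745% of all tested genes called higher and 0.670% called lower. In bulk RNA more cells of a type and more RNA per cell cannot be told apart. The summed level of 10 paraxial mesoderm and mesenchyme markers was 385 to 460 CPM in parental and 567 to 835 CPM in mutant libraries, highest in mutant library 4, as were Tshz1 and Zadh2. Of its 9 tested genes, Twist1 and Postn were called higher, 5 had a positive log2 fold change, and the median was 0.08. The paraxial markers Meox1, Tcf15 and Foxc2 had log2 fold changes of -0.90, -0.68 and -1.52, none past the threshold, and Foxc2 was lower in every mutant library than in any parental library. The summed level of 9 endothelial and erythroid markers was 472 to 749 and 1038 to 1700 CPM. Of these 9, all tested, 3 were called higher, the globin genes Hba-x, Hbb-bh1 and Hbb-y. Mean Hba-x rose from 31.2 to 242 CPM and mean Hbb-bh1 from 106 to 427 CPM. Pecam1, Cdh5, Kdr, Tek, Tal1 and Gata1 were not called, with log2 fold changes of -0.27, 0.35, 0.34, 0.40, 0.76 and 0.74. Definitive endoderm markers (9 genes) summed to 229 to 360 and 210 to 243 CPM, and of 8 tested Foxa2 and Krt18 were called lower, with log2 fold changes of -1.93 and -0.76. The sums of smooth muscle markers, 259 to 1318 and 382 to 528 CPM, and of cardiomyocyte markers overlapped between the lines. Both sums fell from parental library 1 to 4, the cardiomyocyte sum from 2172 to 1148, 488 and 323 CPM. All 6 tested smooth muscle genes and all 7 tested cardiomyocyte genes had negative log2 fold changes, with medians of -0.88 and -1.25, and none was called. Neural markers (12 genes) summed to at most 83.2 CPM in any library, with Neurog2 and Dcx at no more than 2 counts. The part of these cell types in the levels of Tshz1, Zfhx3 and Zadh2 was not tested.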

How the data were processed

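RNA was measured by QuantSeq in 4 parental and 4 Tbx1-/- libraries. The authors deposited 1 table of raw counts per gene and library, made with STAR and featureCounts on mm10, per the submitters' processing notes. Versions and annotation are not given in the sources used here, and the table's name states the forward strand. Identifiers were matched to GENCODE M21 (GRCm38), and 55227 of 55487 had a symbol. Counts were filtered with filterByExpr, scaled by TMM and tested with edgeR 4.0.16 (quasi-likelihood F test, line as the one term, Benjamini-Hochberg over 13280 genes, threshold 0.05) in R 4.3.3, after a check on simulated data. Standard errors derive from the fold change and F. Binomial intervals cover counting error only, since PCR reads without molecular identifiers are not independent molecules. Alternatives were RLE scaling, library size alone, DESeq2 1.42.0, limma-voom 3.58.1, no filter, a filter at 10 mean counts, a replicate block and leaving out each library.

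The 7 genes, the lists and the tests were chosen with earlier results of these data known. Of the listed genes, 2 are not reported here and are left out of the lists' counts. The rule for named genes took the 7 genes, Tbx1, each called gene of the 3 partner and related lists with up to 3 of the most abundant others, nearest and overlapping genes, and the 3 most similar profiles per gene. Genes outside it (Myocd, Six2, the corepressors and some marker genes) were named after their values were seen.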

Additional observations from a re-analysis of the deposited data

How the results depend on the processing

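Tshz1 and Zfhx3 stayed higher in the mutant line and past the threshold in all 15 alternatives, with log2 fold changes of 1.06 to 1.34 and 0.59 to 0.79. Zadh2 stayed higher in all 15 (0.73 to 1.23) and was called in 8, of which 2 were among the 8 fits that left out 1 library. Tshz2, Zfhx2 and Zfhx4 kept their sign and were called in none. Tshz3 was called in none, ranging from -0.33 to 0.052 when 1 library was left out, and its sign turned without mutant library 1 (0.052) and without mutant library 3 (0.016). Over all genes 188 were called, 439 without a filter beyond 1 count, 405 with DESeq2, and 103 to 235 when 1 library was left out. The count was 103 without parental library 2, 104 without parental library 3 and 116 without mutant library 3. Partner genes of both lists numbered 1 called, but 4 without the filter, 3 with DESeq2, 3 under the replicate block and 1 to 3 with 1 library left out (2 without parental library 4 or mutant library 3, 3 without mutant library 4). Related zinc finger genes numbered 4 called and 1 to 4 with 1 library left out. Same-numbered libraries of the lines deviated together with correlations of -0.03 to 0.10, and 1 parental and 2 mutant libraries correlated best with their own number, so the numbers were not taken to pair the samples. With the replicate block 234 genes were called, and the same 3 of the 7 genes. No group of 4 libraries of the 7 genes held a library outside the limit of Dixon's test.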
